A study of Rattus norvegicus with 9 samples.

Results

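The genes described here are 10 astrocyte genes: Aqp4, Kcnj10, Slc1a2, Slc1a3, Glul, Gja1, Gjb6, Aldh1l1, Aldoc and Fgfr3. Most serve the handling of water, potassium and glutamate, while Aldh1l1, Aldoc and Fgfr3 encode enzymes of other pathways and a growth factor receptor. The 10 genes were chosen by name from what is known of astrocytes and by no rule on a measured value, but with earlier results of these data known. They are 10 of the 18733 genes in the deposited data. All 10 passed the filter on low counts, which left 14840 genes for testing. The samples were hippocampal RNA from 9 male rats, 1 library per rat. The 3 control rats had regular feeding. The 3 rats of the PSCI group (post-stroke cognitive impairment) were impaired after MCAO, middle cerebral artery occlusion, a surgical stroke model, and then had regular feeding for 2 weeks. The 3 rats of the taVNS group were impaired after the same occlusion and received transcutaneous auricular vagus nerve stimulation, a current applied to the skin of the ear, over 14 days. Operated rats entered the study by their alternation rate and cognitive index and were divided between the last 2 groups at random. The labels do not state strain, age, sham surgery in the controls, sham stimulation in PSCI rats, or the side of the brain that was taken, and the extraction text names mice where every other label names rats.

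Astrocytes surround synapses and wrap blood vessels with flattened processes called endfeet. Firing neurons release potassium and glutamate, and astrocytes take up both: potassium through the inward rectifier Kir4.1 and glutamate through sodium-coupled transporters, after which glutamine synthetase turns glutamate into glutamine that is handed back to neurons. Water follows through aquaporin-4, which is anchored at the endfoot membrane, and gap junctions made of connexins join astrocytes into a network that spreads ions and metabolites. In injured brain tissue astrocytes become reactive, a state marked by the filament genes Gfap and Vim.

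Of all genes tested, 9.85% passed the test in PSCI against control and 5.75% in taVNS against PSCI. Of the 10 genes, Aqp4 alone passed it in PSCI against control, where it rose 1.52-fold. Aqp4 and Glul passed it in taVNS against PSCI, both lower in taVNS. The other genes did not move as a block. Gja1, the main connexin of astrocytes, was above every control library in all 3 PSCI libraries, while the other astrocyte connexin, Gjb6, and the enzyme Aldoc were below every control library, and none of these 3 passed the test after adjustment. The potassium channel and both glutamate transporters overlapped between PSCI and control, where 27.4% of all genes did not overlap.

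The stretches of 250 bases before the annotated starts of the genes on which these results turn are shown first, for the called genes Aqp4 and Glul and for the connexin pair Gja1 and Gjb6, whose levels lay on opposite sides of control. All 10 genes were found by gene identifier in the promoter table of RefSeq for the assembly GRCr8, which is newer than the build the authors used. They have 16 listed starts. Each sequence is given 5′ to 3′ on the strand of the gene, and capitals mark a match to the AP-1 motif TGANTCA. For genes with 2 listed starts, the one listed first is printed.
Aqp4, chr18:6798843-6799092, minus strand: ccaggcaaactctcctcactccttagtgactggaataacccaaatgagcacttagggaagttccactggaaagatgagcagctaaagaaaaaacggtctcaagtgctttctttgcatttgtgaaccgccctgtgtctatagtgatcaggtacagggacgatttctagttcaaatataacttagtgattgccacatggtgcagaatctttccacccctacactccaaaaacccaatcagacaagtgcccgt
Glul, chr13:68519250-68519499, plus strand: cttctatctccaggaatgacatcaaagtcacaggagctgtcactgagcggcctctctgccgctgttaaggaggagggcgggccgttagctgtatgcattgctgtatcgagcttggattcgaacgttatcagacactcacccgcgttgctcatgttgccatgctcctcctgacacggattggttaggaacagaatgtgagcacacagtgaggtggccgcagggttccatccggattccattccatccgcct
Gja1, chr20:36302314-36302563, plus strand: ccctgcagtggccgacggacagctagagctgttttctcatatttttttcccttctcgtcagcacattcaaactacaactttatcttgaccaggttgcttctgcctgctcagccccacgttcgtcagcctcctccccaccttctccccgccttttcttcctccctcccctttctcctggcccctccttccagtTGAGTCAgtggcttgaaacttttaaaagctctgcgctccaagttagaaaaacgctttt
Gjb6, chr15:35410139-35410388, minus strand: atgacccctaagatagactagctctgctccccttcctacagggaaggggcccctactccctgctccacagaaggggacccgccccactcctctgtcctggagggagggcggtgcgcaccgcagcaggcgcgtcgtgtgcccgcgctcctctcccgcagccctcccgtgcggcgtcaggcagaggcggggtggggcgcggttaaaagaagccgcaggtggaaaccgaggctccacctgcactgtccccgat
Among the 10 genes the AP-1 letters occurred only before Gja1, as TGAGTCA beginning 58 bases upstream of the start, and 6.34% of the 33465 promoters in the table held them on either strand. The STAT motif TTCNNNGAA was in none of the 16 stretches (0) and in 7.67% of all promoters. The RBPJ motif TGGGAA, searched on both strands, was before Slc1a3 and Aldh1l1 and in 22.1% of all promoters. The motifs do not overlap one another in these stretches, and a match is a description of letters and not of a binding site.

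Some facts bear on every result below. Total counts ran from 13747389 to 15415694 per library, and levels between libraries are given as CPM, counts scaled to library size after TMM, as mean ± SD of 3 libraries. In bulk tissue, fewer cells of a type and less RNA per cell cannot be told apart. Of 12 genes fixed as a check of the hippocampus 11 were present, and Lefty1 was at 0 to 0.140 CPM. Of 15 reactive astrocyte genes 13 rose in PSCI against control, and the list averaged 4.35, 5.95 and 5.18 log2 CPM in PSCI replicates 1, 2 and 3, against 1.78 to 2.20 in control and 2.18 to 2.87 in taVNS. Of 12 neuron genes 1, Nefm, fell in PSCI, 11 had a negative log2 fold change, and 5 were lower at an unadjusted p under 0.05. Of these 12 genes 6 lay below control without overlap. Of all 14840 genes tested 1671 lay below control without overlap, and 27.4% did not overlap in either direction. The summed level of the neuron genes was 7489 CPM in PSCI replicate 2, against 10781.5 to 13548.5 CPM in the other 8 libraries. In the same library 10 oligodendrocyte genes summed to 5126 CPM, against 9161 to 17589.8 CPM elsewhere, and the hippocampal genes averaged 5.27 log2 CPM, against 6.10 to 6.52. The 12 genes of meninges and fibroblasts averaged 5.03 log2 CPM in PSCI replicate 2 and 5.36 in taVNS replicate 3, against 2.51 to 3.24 in the other 7 libraries. Of 12 microglia genes 9 rose in PSCI, and of 8 ependymal genes 5 rose, with a summed level of 72.2 to 108 CPM against 33.1 to 46.9 in control. No marker of the lists of reactive astrocytes, neurons, meninges, microglia and ependyma was at 0 in all libraries. Their part in the results on the 10 genes was not tested, except that values without PSCI replicate 2 and taVNS replicate 3 are given where they change a call of the 10 genes.

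Per unit of gene length, the control hippocampus held most of Glul and Aldoc. RPKM, reads scaled for gene length and depth, averaged 665 for Glul and 592 for Aldoc in control, and the ranges of these 2 genes overlapped over the 3 libraries. Slc1a3 followed at 225 RPKM, apart from its neighbours on both sides. Aqp4 at 143 RPKM, Gja1 at 139 RPKM and Slc1a2 at 124 RPKM overlapped with each other in sequence, as did Kcnj10 at 45.9 RPKM, Gjb6 at 34.5 RPKM and Fgfr3 at 31.2 RPKM. Aldh1l1 was lowest at 12.6 RPKM and overlapped with none. In PSCI the order of means was the same, except that Fgfr3 at 26.0 RPKM stood above Gjb6 at 22.1 RPKM, and Glul at 970 RPKM was then apart from Aldoc at 408 RPKM. In taVNS, where Fgfr3 also stood above Gjb6, Glul at 569 RPKM and Aldoc at 487 RPKM overlapped again.

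**Figure D1:**
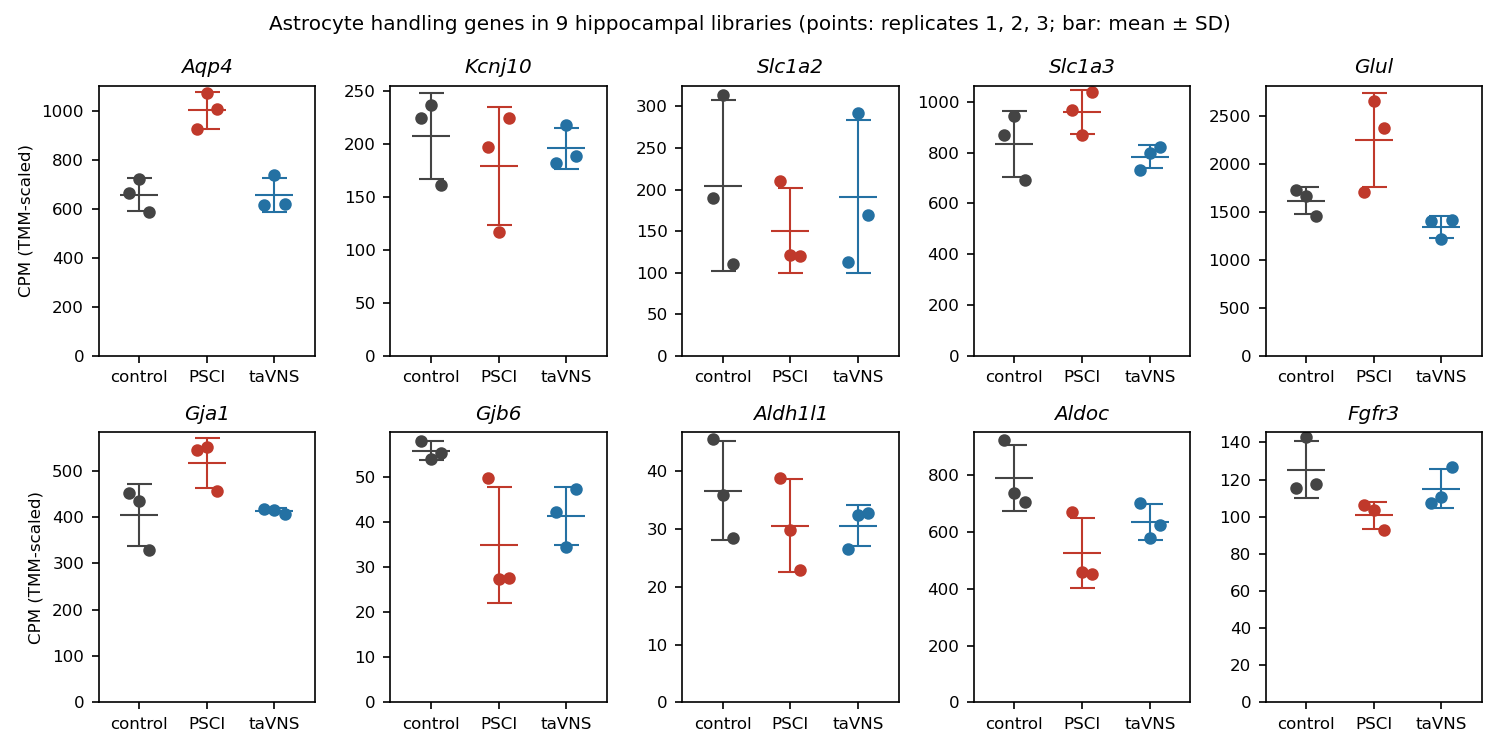
Level of each of the 10 genes in CPM (y axis, from 0) in control, PSCI and taVNS, with 1 point per library and a bar for the mean ± SD of 3 libraries. The 3 PSCI points of Aqp4, from 925 to 1075 CPM, lie above all control and taVNS points, while those of Gjb6 and Aldoc lie below all control points.

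Aqp4 encodes aquaporin-4, the water channel of astrocyte endfeet. It stood at 667, 722 and 586 CPM in the control libraries, at 925, 1075 and 1007 CPM in the PSCI libraries, and at 614, 738 and 619 CPM in the taVNS libraries. All 3 PSCI libraries were above all 6 others, while control and taVNS libraries overlapped. Between PSCI and control the log2 fold change was 0.61 ± 0.12 (SE), from 658 ± 68.5 to 1002 ± 75.0 CPM (SD, n = 3), with an adjusted p of 0.0159 by edgeR's quasi-likelihood test with Benjamini-Hochberg adjustment. Over all genes 9.85% were called in this comparison, 7.71% higher and 2.14% lower. Thus 1 of the 10 genes was higher and none lower (0), against a background of nearly 1 in 10. The call was lost without control replicate 3 or without PSCI replicate 3, with an adjusted p of at most 0.0734 over all alternatives, and held without PSCI replicate 2 and taVNS replicate 3, where the log2 fold change was 0.54 and the adjusted p 0.0461.

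In taVNS against PSCI, Aqp4 fell by 34.4%, a log2 fold change of -0.61 ± 0.12 (edgeR adjusted p = 0.0237). The call was lost in the fit of these 2 groups alone, without PSCI replicate 3, without taVNS replicate 1 and without taVNS replicate 3, and it was lost without PSCI replicate 2 and taVNS replicate 3 together, where the change was -0.51 and the adjusted p 0.131. This comparison shares its PSCI libraries with the one before, so the 2 results are not independent. Between taVNS and control the log2 difference of Aqp4 was -0.0025, with a 95% interval of -0.28 to 0.27.

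The other genes of water handling at the endfoot were not called. Of 15 tested water channels and endfoot anchoring genes 0 were called by edgeR in PSCI against control, with 3 higher and 0 lower at an unadjusted p under 0.05, 2 called by DESeq2 and 0 by limma-voom. Their median log2 fold change was 0.21, against -3.68e-05 over all genes tested. Dag1, which encodes dystroglycan, the laminin receptor of the endfoot complex, averaged 175 CPM in PSCI and 147 CPM in control (edgeR adjusted p = 0.159), and was picked after its values were seen. Aqp9, an aquaporin that also passes glycerol, was at 7.98 ± 2.61 CPM in control, 10.5 ± 1.03 in PSCI and 7.60 ± 1.81 in taVNS (adjusted p = 0.376 and 0.330 by edgeR). Aqp1, the aquaporin of the choroid plexus, had 79 counts in all 9 libraries and was not tested.

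Kcnj10 encodes Kir4.1, the inward rectifier through which astrocytes take up potassium. Its levels were 224, 237 and 161 CPM in control, 197, 117 and 224 CPM in PSCI, and 181, 218 and 188 CPM in taVNS. The 3 groups overlapped, and the low value of 117 CPM was in PSCI replicate 2, the library with the lowest summed level of neuron genes and high meningeal markers. For PSCI against control the log2 fold change was -0.21 ± 0.23 (edgeR adjusted p = 0.633), and without PSCI replicate 2 it was 0.026, so that its direction rested on that library. Kcnj16, which encodes Kir5.1, a partner subunit of Kir4.1, was at 30.6 ± 8.04 CPM in control, 33.3 ± 17.9 CPM in PSCI and 25.5 ± 13.9 CPM in taVNS and overlapped likewise. Of 15 tested genes of potassium and ion handling in glia edgeR called 0 in PSCI against control, with 1 higher and 1 lower at an unadjusted p under 0.05, 2 called by DESeq2 and 0 by limma-voom. Their median log2 fold change was 0.040.

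Aqp4 and Kcnj10 lie side by side at endfeet, and within a library their ratio needs no scaling for depth. Counts of Aqp4 were 2.98, 3.05 and 3.64 times those of Kcnj10 in control, 4.70, 9.19 and 4.50 times in PSCI, and 3.39, 3.39 and 3.29 times in taVNS. All PSCI ratios were above the other 6, with that of PSCI replicate 2 highest and the 3 taVNS ratios close together. On the log2 scale the means were 1.68 ± 0.16, 2.53 ± 0.58 and 1.75 ± 0.02 (SD, n = 3), and the 3 groups differed with p = 0.0143 by an exact permutation test of F over 1680 arrangements of the libraries, or 0.0357 adjusted over the 5 ratios tested. The smallest p this design allows is 0.00357. The call was lost with RPKM in place of counts (adjusted p = 0.0625), without PSCI replicate 2 and taVNS replicate 3 (0.119, where PSCI exceeded control by 0.52 and not 0.85), and without any 1 library other than PSCI replicate 1. The count-to-RPKM ratio of Kcnj10, which gives the gene length the authors' scaling implied, varied from 4.27 to 4.66 kb between libraries, more than for any other of the 10 genes.

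Slc1a2 encodes GLT-1, the transporter that carries most glutamate uptake in the forebrain, and it was the most variable of the 10 genes. It stood at 190, 314 and 110 CPM in control, at 210, 122 and 121 CPM in PSCI, and at 113, 292 and 170 CPM in taVNS. Each group held both low and high libraries, and the range within each group exceeded every difference between group means. Its residual SD was 0.65 on the log2 scale, and 97.5% of the 10456 genes with a mean of at least 10 CPM varied less. The log2 fold change of PSCI against control was -0.44 ± 0.43, with a 95% interval of -1.42 to 0.54 and an edgeR adjusted p of 0.583, and without control replicate 2 it was 0.0070.

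Slc1a3 encodes GLAST, the second glutamate transporter of astrocytes. It was measured at 868, 946 and 692 CPM in control, 966, 869 and 1041 CPM in PSCI, and 733, 798 and 822 CPM in taVNS. The PSCI libraries overlapped with control and were all above taVNS. Its log2 fold change was 0.20 ± 0.13 in PSCI against control (edgeR adjusted p = 0.401) and -0.29 ± 0.13 in taVNS against PSCI (adjusted p = 0.255). Slc1a1, the glutamate transporter of neurons, was at 203 ± 4.73 CPM in control, 196 ± 37.9 CPM in PSCI and 188 ± 9.65 CPM in taVNS. The log2 ratio of Slc1a2 to Slc1a3 counts averaged -2.15 ± 0.53 in control, -2.72 ± 0.47 in PSCI and -2.14 ± 0.64 in taVNS, and the groups overlapped (exact permutation test, adjusted p = 0.386).

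Glul encodes glutamine synthetase, which joins glutamate and ammonia and in the brain is found chiefly in astrocytes. Levels were 1727, 1659 and 1458 CPM in control, 1705, 2654 and 2373 CPM in PSCI, and 1398, 1212 and 1415 CPM in taVNS. PSCI replicates 2 and 3 were above every other library, while PSCI replicate 1 lay among the controls; every taVNS library was below every library of the other 2 groups in CPM. Between taVNS and PSCI Glul fell by 0.74 on the log2 scale, with an SE of 0.17 and an edgeR adjusted p of 0.0366, from 2244 ± 487 to 1342 ± 113 CPM. This was the second of the 10 genes lower in taVNS than in PSCI, with none higher (0), where 5.75% of all genes were called, 0.842% higher and 4.91% lower. The Glul call held in 6 of 19 alternatives, and without PSCI replicate 2 and taVNS replicate 3 it was lost, at a log2 fold change of -0.64 and an adjusted p of 0.126, the highest of the 19. Of the 9 fits that each left out a single library, the one without PSCI replicate 1 kept the call. In PSCI against control the log2 fold change was 0.47 ± 0.17 with an adjusted p of 0.113, and it was called by DESeq2 (0.0442) and without PSCI replicate 1 (0.0127). In RPKM the 3 PSCI values were all above control, and taVNS overlapped with control.

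Around Glul, enzymes and carriers that use glutamate were among the genes that fell. In PSCI against control 7.71% of all genes were called higher and 2.14% lower. Of 22 tested genes of the glutamate, GABA and glutamine cycle 1 rose and 5 fell in that comparison, with a median log2 fold change of -0.05. Of those that fell, 3 are described here. Slc25a18, a mitochondrial glutamate carrier, fell from 67.8 ± 1.63 to 30.4 ± 6.63 CPM (log2 fold change -1.16, edgeR adjusted p = 0.00619). Glud1, glutamate dehydrogenase, fell from 522 ± 35.4 to 361 ± 18.9 CPM (adjusted p = 0.0114), and the calls of both held under all 19 alternatives. Got1, the cytosolic aspartate aminotransferase, fell from 358 ± 39.4 to 247 ± 26.9 CPM (adjusted p = 0.0198, and up to 0.0986, held in 14 of 19 alternatives). The Got1 call was lost in the fit of these 2 groups alone, without control replicate 1 or 3 or PSCI replicate 3, and without PSCI replicate 2 and taVNS replicate 3 together. The gene that rose was Slc1a5, a neutral amino acid exchanger, from 1.16 to 4.43 CPM. Got1 is also active in neurons, whose summed markers were lowest in PSCI replicate 2, and their part in its fall was not tested. Its levels were 273, 219 and 249 CPM in PSCI and 383, 313 and 378 CPM in control. Slc38a3, the glutamine exporter of astrocytes, was at 47.6 ± 10.2 CPM in control, 45.8 ± 11.0 CPM in PSCI and 49.3 ± 3.12 CPM in taVNS and was not called. In taVNS against PSCI 0.842% of all genes were called higher. Of the list 2 rose there, Glud1 by 0.43 and Slc25a18 by 0.85 on the log2 scale (edgeR adjusted p = 0.0366 and 0.0294). These 2 calls held in 7 and 11 of 19 alternatives, and both were lost, among other settings, without PSCI replicate 2 and taVNS replicate 3 together and without any 1 taVNS library. The ratio of Glul to Slc1a2 counts did not separate the groups (exact permutation test, adjusted p = 0.379).

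Gja1 encodes connexin 43, the main protein of astrocyte gap junctions, and Gjb6 encodes connexin 30, its partner there. Gja1 stood at 451, 435 and 328 CPM in control, 545, 551 and 455 CPM in PSCI, and 417, 416 and 407 CPM in taVNS. All PSCI libraries were above all others, by a small margin, since the lowest PSCI value of 455 CPM was next to the highest control value of 451 CPM. Its log2 fold change was 0.35 ± 0.13 in PSCI against control (edgeR adjusted p = 0.138) and -0.32 ± 0.13 in taVNS against PSCI (adjusted p = 0.208).

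Gjb6 went the other way in level. It was at 58.2, 54.0 and 55.5 CPM in control, 49.8, 27.3 and 27.7 CPM in PSCI, and 42.3, 34.6 and 47.4 CPM in taVNS. Both operated groups lay below all controls, and PSCI replicate 1 lay well above the other 2 PSCI libraries and above all of taVNS. The log2 fold change was -0.68 ± 0.23 in PSCI against control (edgeR adjusted p = 0.0955), 0.25 ± 0.23 in taVNS against PSCI (adjusted p = 0.587) and -0.43 ± 0.22 in taVNS against control (adjusted p = 1). DESeq2 called the first of these with an adjusted p of 0.0402, and edgeR called it without PSCI replicate 1, at -1.03 and 0.00195. Without that library edgeR also called Gjb6 higher in taVNS than in PSCI, at 0.59 and an adjusted p of 0.0279, while without PSCI replicate 2 the difference was 0.095 and not called.

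**Figure D2:**
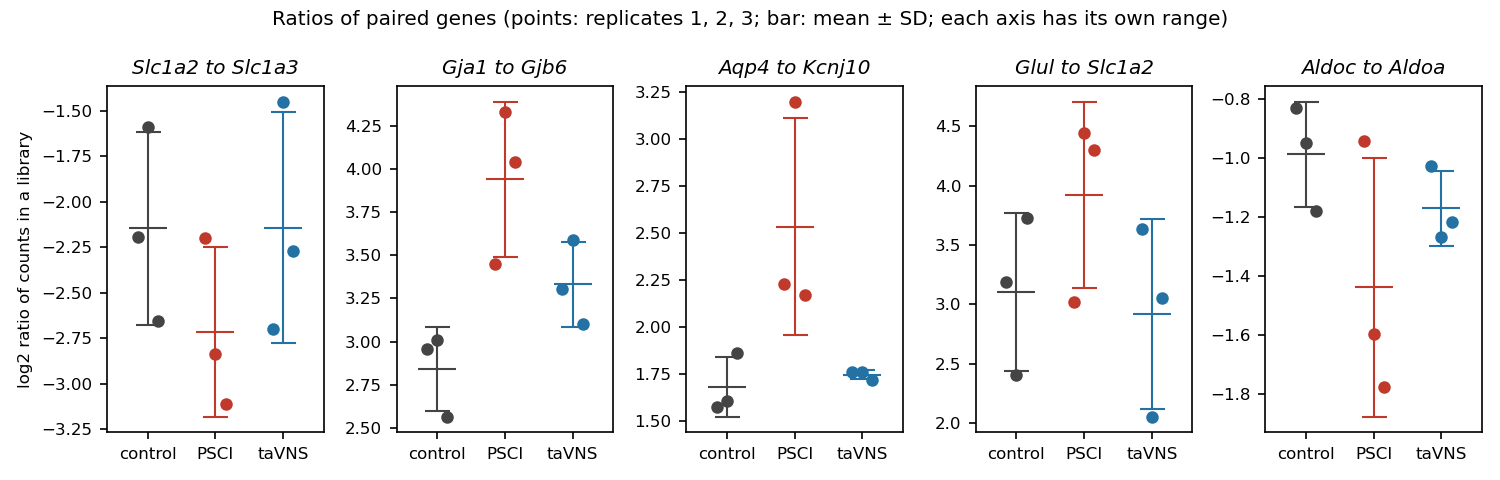
Log2 ratio of the counts of 2 genes within a library (y axes, each with its own range) for 5 pairs, by group, with 1 point per library and a bar for the mean ± SD of 3 libraries. The ratio of Gja1 to Gjb6 was 3.94 ± 0.45 in PSCI against 2.84 ± 0.24 in control, and that of Aqp4 to Kcnj10 was high in PSCI replicate 2.

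Within a library, Gja1 counts were 7.75, 8.05 and 5.92 times those of Gjb6 in control, 10.9, 20.1 and 16.5 times in PSCI, and 9.87, 12.04 and 8.59 times in taVNS. Every PSCI and taVNS ratio was above every control ratio, and PSCI replicate 1 lay among the taVNS ratios. The log2 means were 2.84 ± 0.24, 3.94 ± 0.45 and 3.33 ± 0.25 (SD, n = 3), with p = 0.0143 by the exact permutation test, or 0.0357 adjusted over 5 ratios. The call was lost with RPKM (0.0625, PSCI above control by 1.11 and not 1.10), without PSCI replicate 2 and taVNS replicate 3 (0.119, 0.90), and without any 1 library other than PSCI replicate 1. Of 11 other junction genes tested (connexins, pannexins and Tjp1), edgeR called 0 in PSCI against control and 0 in taVNS against PSCI. At an unadjusted p under 0.05 there were 1 higher and 1 lower in the first, and 1 higher and 2 lower in the second. DESeq2 called 0 and 1 of them and limma-voom 0 and 0. Gjb2, the connexin of meningeal cells and some astrocytes, was at 6.28 ± 0.894 CPM in control, 6.32 ± 2.11 CPM in PSCI and 8.92 ± 4.35 CPM in taVNS, with its highest value of 13.9 CPM in taVNS replicate 3, which also had the highest meningeal list.

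Aldoc encodes aldolase C, the glycolytic aldolase of brain astrocytes. Its levels were 923, 737 and 706 CPM in control, 668, 459 and 450 CPM in PSCI, and 702, 578 and 624 CPM in taVNS. In CPM every library of both operated groups was below every control, in taVNS by a small margin, 702 against 706 CPM. In RPKM the PSCI libraries were below control and taVNS overlapped with control. In CPM 27.4% of all genes did not overlap in PSCI against control and 11.1% in taVNS against control. As with Gjb6 the highest PSCI value was in replicate 1. Of the PSCI libraries, replicate 1 had the lowest reactive astrocyte and microglia levels and the highest summed neuron genes. Their part in the Aldoc and Gjb6 levels was not tested. PSCI differed from control by a log2 fold change of -0.58 ± 0.18 (edgeR adjusted p = 0.0699). It was called by DESeq2 (0.0169) and without PSCI replicate 1 (-0.80, adjusted p = 0.00866). Between taVNS and PSCI the difference was 0.27 ± 0.18 (adjusted p = 0.419). Aldoa, the general aldolase, was at 1556 ± 115 CPM in control, 1406 ± 130 CPM in PSCI and 1425 ± 29.7 CPM in taVNS. The log2 ratio of Aldoc to Aldoa was -0.99 ± 0.18, -1.44 ± 0.44 and -1.17 ± 0.13 in the 3 groups (exact permutation test, adjusted p = 0.369), and 0.0179 without PSCI replicate 1.

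Aldh1l1 encodes a folate dehydrogenase used as a general astrocyte marker. It was at 45.5, 35.8 and 28.4 CPM in control, 38.9, 29.8 and 22.9 CPM in PSCI, and 26.4, 32.5 and 32.8 CPM in taVNS, so that all 3 groups overlapped. Its log2 fold change was -0.26 ± 0.22 in PSCI against control (edgeR adjusted p = 0.507, 95% interval -0.75 to 0.23; from -0.48 without PSCI replicate 1 to -0.077 without control replicate 1) and 0.0016 in taVNS against PSCI. Of 20 tested genes of folate, glycogen, glycolysis and lactate 2 rose and 1 fell in PSCI against control, with a median log2 fold change of 0.24. The shares of all genes were 7.71% higher and 2.14% lower. Slc16a3, a lactate exporter, rose from 0.755 ± 0.146 to 3.78 ± 1.09 CPM (log2 fold change 2.31, edgeR adjusted p = 0.00422) and kept its call in all 19 alternatives. Shmt1, a serine hydroxymethyltransferase of folate metabolism, rose from 5.44 ± 1.48 to 10.8 ± 2.57 CPM (adjusted p = 0.0417), and Ldhb, a lactate dehydrogenase subunit, fell from 445 ± 46.3 to 325 ± 10.7 CPM (adjusted p = 0.0492). The calls of Shmt1 and Ldhb held in 8 and 4 of 19 alternatives. Shmt1 and Slc16a3 fell in taVNS against PSCI, by 1.11 and 1.82 on the log2 scale (adjusted p = 0.0396 and 0.0141). These calls held in 8 and 15 of 19 alternatives, and both were lost, among other settings, without taVNS replicate 1 or 2 and without PSCI replicate 2 and taVNS replicate 3 together.

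Fgfr3 encodes a receptor for fibroblast growth factors that is found in astrocytes. Its levels were 116, 143 and 118 CPM in control, 106, 103 and 92.7 CPM in PSCI, and 107, 111 and 127 CPM in taVNS. The PSCI libraries were below those of both other groups in CPM, and in RPKM they were below control and overlapped with taVNS. The log2 fold change of PSCI against control was -0.31 ± 0.11 (edgeR adjusted p = 0.113), and that of taVNS against PSCI was 0.19 ± 0.11 (adjusted p = 0.368). Of its paralogs, Fgfr1 averaged 162 ± 8.31 CPM in control against 215 ± 41.4 CPM in PSCI (adjusted p = 0.178 by edgeR). Fgfr2 averaged 106 ± 6.79 and 106 ± 14.5 CPM in the same groups (adjusted p = 0.990).

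Of 16 tested genes of FGF signalling 1 rose and 2 fell in PSCI against control, with a median log2 fold change of 0.07. The shares of all genes were 7.71% higher and 2.14% lower. Spry4, a feedback inhibitor that FGF signalling induces, fell from 15.8 ± 0.747 to 9.45 ± 0.441 CPM (log2 fold change -0.74, edgeR adjusted p = 0.0068) and kept its call in all 19 alternatives. Etv5, a transcription factor induced by FGF signalling, fell from 104 ± 12.6 to 73.5 ± 8.56 CPM (adjusted p = 0.0381), and Fgfrl1, an FGF receptor without a kinase domain, rose from 12.6 ± 2.00 to 29.6 ± 13.4 CPM (adjusted p = 0.0390). These 2 calls held in 8 and 6 of 19 alternatives. In taVNS against PSCI Spry4 rose by 0.51 and Fgfrl1 fell by 1.36 on the log2 scale (adjusted p = 0.0422 and 0.0402). These calls held in 3 and 5 of 19 alternatives, and both were lost, among other settings, in every fit that left out a single taVNS or control library.

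**Figure D3:**
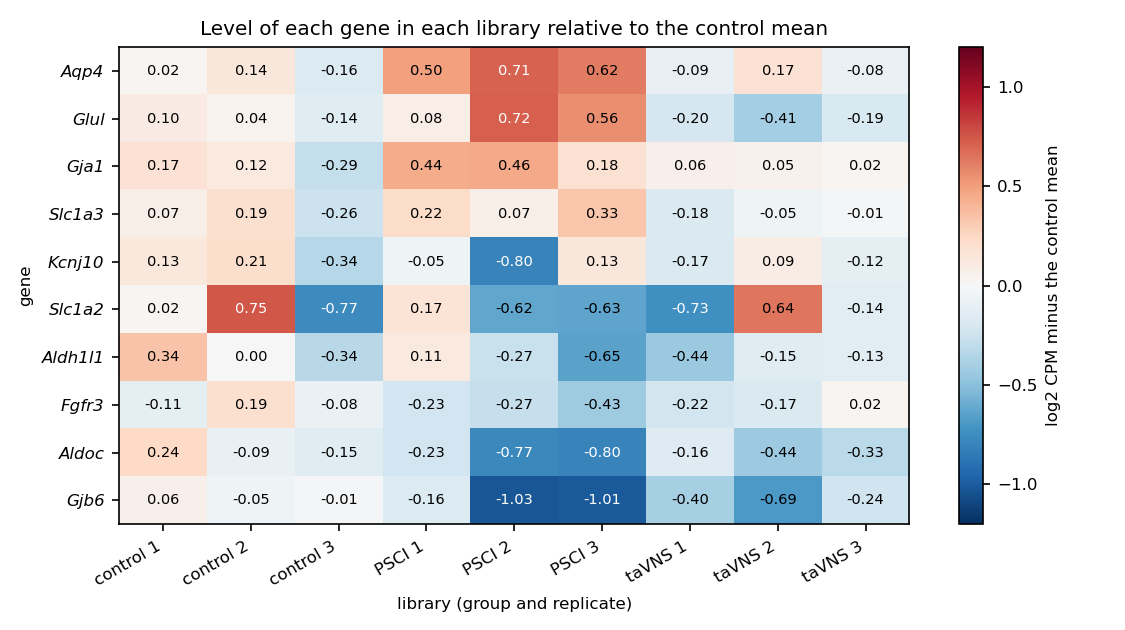
Log2 CPM of each gene (rows) in each of the 9 libraries (columns) minus the gene's control mean, with the value written in each cell. Values above the control mean are red and values below it blue; PSCI replicates 2 and 3 hold the highest values of Glul, 0.72 and 0.56, and the lowest of Gjb6, -1.03 and -1.01.

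Set side by side over the 9 libraries, the 10 genes did not share a single pattern. In PSCI against control 4 of them had a positive and 6 a negative log2 fold change, with a median of -0.24. At an unadjusted p under 0.05 there were 3 higher (Aqp4, Glul and Gja1) and 3 lower (Gjb6, Aldoc and Fgfr3), where 25.3% of all genes reached that p. Groups did not overlap for 5 of the 10 genes, 2 higher and 3 lower, against 27.4% of all genes. In taVNS against PSCI 3 of the 10 genes, Aqp4, Glul and Gja1, had an unadjusted p under 0.05, against 21.1% of all genes, and 5 did not overlap, 1 higher and 4 lower, against 25.9%. Likeness was measured as the root mean square difference of log2 CPM after each gene was centred on its own mean, over 9 libraries. By this measure Gja1 and Slc1a3 were nearest to each other at 0.16, as were Gjb6 and Aldoc at 0.16, and the nearest of the 10 genes to Glul was Aqp4 at 0.20. Among 14225 genes with a mean of at least 1 CPM, those nearest to Aqp4 were Nup93 at 0.07, Mfsd1 at 0.07 and Mmgt2 at 0.07, and those nearest to Glul were Rpsa, Septin2 and Dek, each at 0.10.

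**Figure D4:**
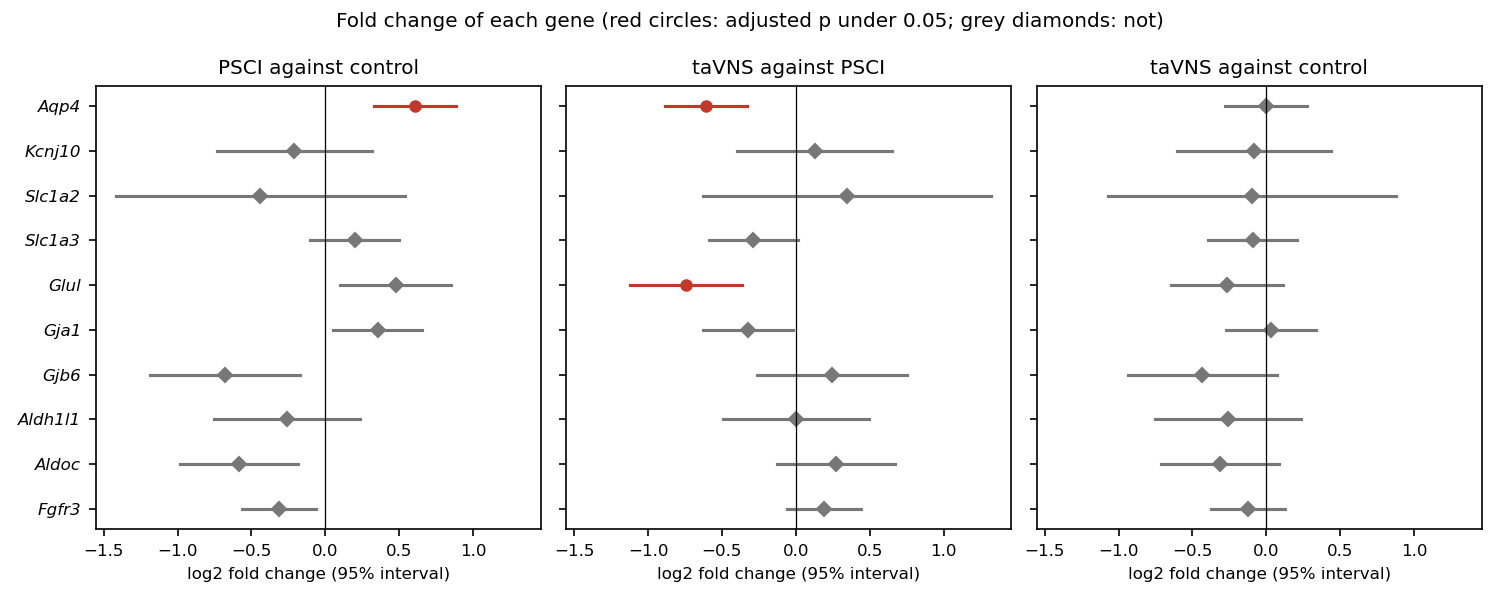
Log2 fold change of each of the 10 genes (x axis) with its 95% interval, in PSCI against control, taVNS against PSCI and taVNS against control. Red circles mark genes called at an adjusted p under 0.05, which were Aqp4 in the first panel and Aqp4 and Glul in the second, and every interval in the third panel includes 0.

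In taVNS against control edgeR called none of the 10 genes (0), and 0% of all genes. At an unadjusted p under 0.05 there were also 0 of the 10, against 3.75% of all genes, and DESeq2 and limma-voom called 0 of the 10. Gjb6, Glul and Aldoc did not overlap between these groups in CPM, all 3 lower in taVNS, where 11.1% of all genes did not overlap; in RPKM this held for Gjb6. Of the 10 genes 9 had a negative log2 difference, with a median of -0.11, against 0.0023 over all genes. The intervals allow sizeable differences: that of Gjb6 ran from -0.94 to 0.07, that of Aldoc from -0.71 to 0.08 and that of Slc1a2 from -1.07 to 0.88. These comparisons share their control libraries with PSCI against control.

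The other genes by which astrocytes are known also split. Of 24 further identity genes 2 rose and 6 fell in PSCI against control, with a median log2 fold change of -0.11. The shares of all genes were 7.71% higher and 2.14% lower. Mfge8, a secreted bridge for the uptake of cell debris, fell from 153 ± 7.49 to 74.9 ± 11.8 CPM (edgeR adjusted p = 0.00256), and Hes5, a Notch target, from 11.3 ± 1.38 to 3.81 ± 1.07 CPM (adjusted p = 0.00326). Slc14a1, a urea transporter, rose from 60.4 ± 6.04 to 123 ± 22.0 CPM (adjusted p = 0.00302). These 3 calls held in all 19 alternatives. The others were Fabp7, which rose, and Gpc5, Atp13a4, Bcan and Cbs, which fell. In taVNS against PSCI 3 of the 24 rose (Mfge8, Gpc5 and Hes5) and 2 fell (Fabp7 and Slc14a1). The shares of all genes were 0.842% higher and 4.91% lower there. Hes5 stood at 10.1 ± 0.440 CPM in taVNS and Slc14a1 at 62.0 ± 2.01 CPM.

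**Figure D5:**
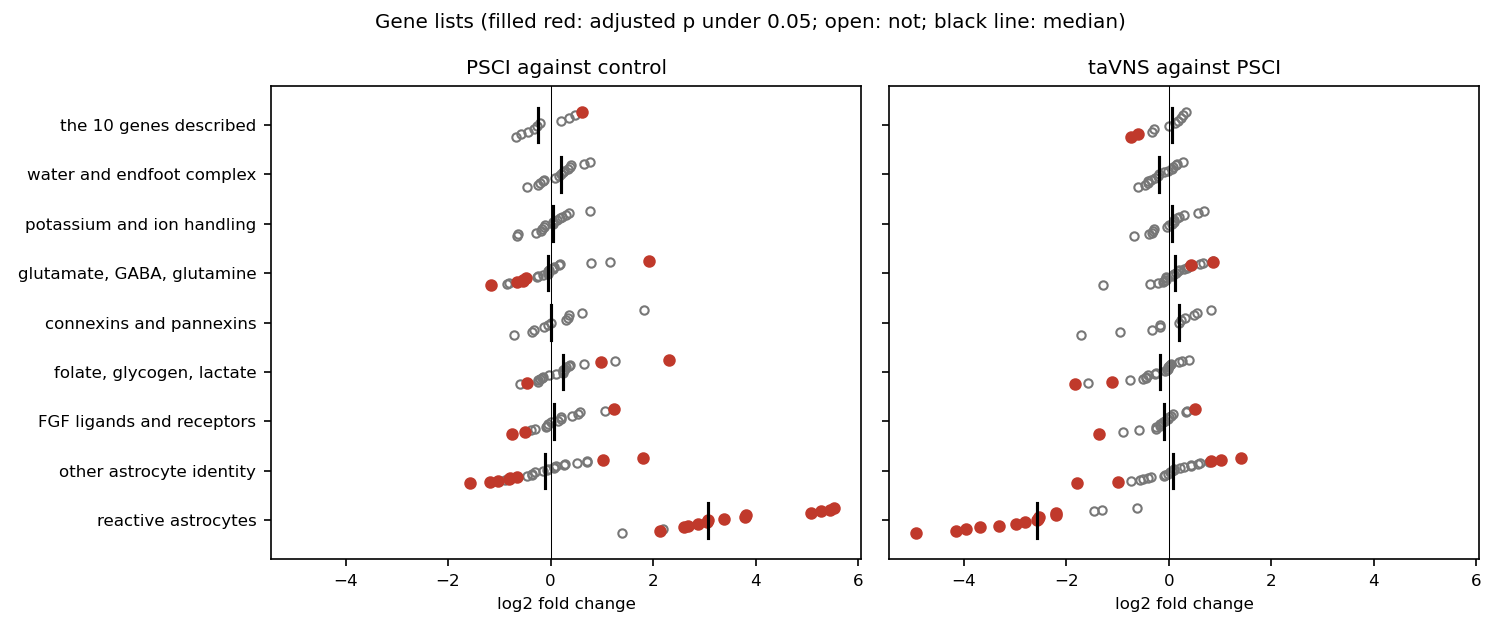
Log2 fold change (x axis) of each tested gene of the 10 described and of 8 further lists, in PSCI against control and taVNS against PSCI; filled red circles were called at an adjusted p under 0.05, open circles were not, and black lines are medians. The 10 genes lie on both sides of 0 with medians of -0.24 and 0.06, while all 15 reactive astrocyte genes lie above 0 in the first panel and below 0 in the second.

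Against the reactive genes the changes of the 10 were small. Over the 15 reactive astrocyte genes the median log2 fold change was 3.06 in PSCI against control and -2.58 in taVNS against PSCI, with 13 rising in the first and 12 falling in the second. The median size, taken without sign, was 0.40 and 0.28 for the 10 genes, against 0.21 and 0.19 for all genes tested. Vim, an intermediate filament of reactive astrocytes, was at 25.5 ± 3.86 CPM in control, 860 ± 404 CPM in PSCI and 55.7 ± 33.8 CPM in taVNS. The summed level of the 10 genes ran from 4243 to 5283 CPM in control, from 5410 to 6006 CPM in PSCI and from 4335 to 4452 CPM in taVNS, and most of that sum came from Glul, Aqp4, Slc1a3 and Aldoc.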

How the data were processed

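Hippocampal RNA of 9 rats was sequenced as poly(A)-selected libraries that mark strand, per the labels' protocols. The deposited gene counts are the authors' expected counts, which are estimates and need not be whole. The deposited RPKM values are reads scaled by the authors for gene length and depth. HISAT2 2.0.4, RSEM 1.2.8 and the build mRatBN7.2 are named per the submitters' processing notes; their roles, the annotation, filters and use of strand are not given in the sources used here. Counts and RPKM of the 10 genes gave log2 ratios between groups that differed by at most 0.068.

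Expected counts were rounded to whole numbers (between 91.1% and 91.6% of genes held an exactly whole deposited value, with no tolerance). After filterByExpr and TMM scaling, edgeR 4.0.16 fitted all 9 libraries by group (quasi-likelihood, 6 residual degrees of freedom), with Benjamini-Hochberg adjustment over 14840 genes; called means an adjusted p under 0.05. R 4.3.3, limma 3.58.1 and DESeq2 1.42.0 were used, with a prior count of 2 for log2 CPM. Groups follow the sample titles, and each library is a separate animal. Ratios were compared by exact permutation of the 9 libraries, 2-sided by construction. Alternatives were other scaling factors (DESeq2 size factors and upper quartile), DESeq2, limma-voom, no filter, limma on log2 RPKM with 0.1 or 1 added, a fit of 2 groups, a replicate block, and each library left out. The scripts for both kinds of test were tested on simulated data.

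The 10 genes, 8 lists of related genes, 11 lists of markers, the tests and the left-out pair PSCI replicate 2 and taVNS replicate 3 were chosen with earlier results of these data known. The lists hold 269 genes with the 10, of which 258 were tested. Genes named from a list are the 3 called genes with the smallest p per list and comparison, with close relatives of the 10 named whatever their result; genes named to complete a count were chosen after their values were seen. Some list genes, though counted, are not reported here by name. Promoter sequences are from RefSeq for GRCr8.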

Additional observations from a re-analysis of the deposited data

How the results depend on the processing

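Precision is limited by 3 animals per group and by the spread among the PSCI libraries. Of 570 log2 fold changes of the 10 genes (30 results under 19 alternatives), 514 kept their direction and their side of the threshold, 20 lost and 8 gained a call, and 28 changed sign. The number of all genes called ran from 548 (without control replicate 3) to 2278 (DESeq2) in PSCI against control, where the fit with every library called 1461. It ran from 172 (without taVNS replicate 1) to 1707 (without PSCI replicate 1) in taVNS against PSCI, against 854, and from 0 to 7 (DESeq2) in taVNS against control. Scaling moved the median of all genes by less than 0.1 on the log2 scale.

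Of the 10 genes, PSCI against control gave 4 calls with DESeq2 (Aqp4, Glul, Gjb6 and Aldoc), and 0 to 4 with 1 library left out. In taVNS against PSCI there was 1 call (Aqp4) with limma on log2 RPKM with 0.1 or 1 added, 0 in the fit of the 2 groups, 0 without PSCI replicate 2 and taVNS replicate 3, and 0 to 3 with 1 library left out. The PSCI minus control difference of the log2 ratio of Gja1 to Gjb6 was 1.11 with RPKM, 0.90 without PSCI replicate 2 and taVNS replicate 3, and 0.90 to 1.34 with 1 library left out. That of Aqp4 to Kcnj10 was 0.86, 0.52 and 0.52 to 1.03 in the same settings, and that of Aldoc to Aldoa ran from -0.70 (called, without PSCI replicate 1) to -0.28 with 1 library left out.

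With the replicate number as a replicate block, 2 of the 10 genes (Aqp4 and Aldoc) were called in PSCI against control and 1 (Aqp4) in taVNS against PSCI, and 1084 and 518 of all genes. Both ratios kept differences of 1.10 and 0.85 there (adjusted p = 0.139, exact permutation within replicate numbers), a test of 216 arrangements whose smallest p is 0.0278, or 0.0694 once adjusted for 2 of 5 ratios at that p, so it could not keep their calls. Same-numbered libraries deviated from their group means with correlations of -0.468 to 0.255, and 1 of 9 libraries correlated best with its own number. These values showed no pairing by number. They cannot exclude one, since the labels do not say what a number shares and each group has few libraries.

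Every sign change was in a gene and comparison without a call in the fit with every library, and the causes were not tested. Aqp4 in taVNS against control was 0.0028 with DESeq2 size factors, 0.015 with upper quartile factors, 0.0016 with DESeq2, 0.028 with RPKM and 0.1 or 1 added, 0.030 without PSCI replicate 2 and taVNS replicate 3, and -0.095 to 0.068 with 1 library left out. Without PSCI replicate 2 and taVNS replicate 3, Kcnj10 was 0.0068 in PSCI against control and -0.070 in taVNS against PSCI, and in the latter Gjb6 was -0.0086 and Aldh1l1 -0.065. With 1 library left out, Kcnj10 ran from -0.40 to 0.026 in PSCI against control, -0.10 to 0.32 in taVNS against PSCI and -0.23 to 0.024 in taVNS against control, and Slc1a2 from -0.76 to 0.0070, -0.093 to 0.66 and -0.53 to 0.35. In taVNS against control Slc1a3 then ran from -0.21 to 0.0068 and Gja1 from -0.098 to 0.11, and in taVNS against PSCI Aldh1l1 from -0.17 to 0.21.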

Other observations

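The lists of other cell types, counted in PSCI against control by edgeR at an adjusted p under 0.05, were as follows. Of 9 tested genes of radial glia and dividing cells 6 rose, among them Top2a, the topoisomerase of dividing cells, from 1.83 ± 0.288 to 60.5 ± 38.9 CPM. Of 6 oligodendrocyte precursor genes 1, Gpr17, fell by 0.45 on the log2 scale. None were called (0) among 10 oligodendrocyte genes (0 higher and 1 lower at an unadjusted p under 0.05), 12 endothelial and pericyte genes (3 and 0), 12 meningeal genes (6 and 0), 6 choroid plexus genes (1 and 0) and 14 genes of neighbouring regions (1 and 1). In taVNS against PSCI 6 microglia genes fell and 1 rose. Foxj1, a factor of ciliated cells, was the 1 ependymal gene called, and fell from 25.4 ± 3.53 to 7.45 ± 0.477 CPM. Of the 8 ependymal genes 6 were lower at an unadjusted p under 0.05. Of the 9 genes of radial glia and dividing cells 6 fell in taVNS against PSCI, among them Top2a, to 2.13 ± 0.408 CPM. The precursor gene Olig1 fell there by 0.49 on the log2 scale. The shares of all genes were 0.842% higher and 4.91% lower. These lists were not run with another tool.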
